A study of Mus musculus with 6 samples.

Results

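Entpd3 and the other enzymes that break down extracellular nucleotides were followed in p53 null mammary epithelial cells (MECs) with and without past exposure to tamoxifen. The set was named as 9 genes, the ectonucleotidases Entpd1, Entpd2, Entpd3, Entpd5, Nt5e and Enpp1 and the adenosine receptors Adora1, Adora2a and Adora2b. A gene was taken where the array annotation pairs a probeset with its symbol alone, which held for 5 of the 9, each with 1 probeset, out of 17418 genes in all. These were Entpd1, Entpd2, Entpd3, Entpd5 and Nt5e. No probeset was matched to Enpp1, Adora1, Adora2a or Adora2b by this rule, and they are not analysed here. Entpd3 heads the set because it was chosen by its measured difference in this same comparison of tamoxifen and control pools, where the study lists it at thresholds of 0.01 on the nominal p and 1.4 on the fold change. Its difference is therefore a description without a test, and the other genes were added for what they encode. Each gene's probeset was selected on its mean intensity over all 6 arrays.

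Cells release ATP into the extracellular space, where it acts on P2 receptors until surface enzymes remove its phosphates. The enzymes Entpd1, Entpd2 and Entpd3 belong to the NTPDase family and convert ATP and ADP toward AMP, and Nt5e (CD73) then splits AMP into adenosine and phosphate. Adenosine acts on its own G protein-coupled receptors, is carried into cells by nucleoside transporters and is deaminated or phosphorylated there.

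MECs were isolated by collagenase and hyaluronidase digestion from outgrowths of p53-null Balb/c mammary duct that had been transplanted into the cleared number 4 fat pads of p53 wild-type Balb/c hosts, with 3 pools of control glands and 3 pools of tamoxifen glands. Tamoxifen, a selective estrogen receptor modulator, was given as a 5 mg subcutaneous pellet for 13 weeks and controls received a sham pellet. Glands were collected 4 weeks after removal, and every mouse of both groups had received 100 ug of 17-beta-estradiol (E2) 8 h earlier, so both groups are E2 treated. Donor mice were 8 weeks old. The labels place pellet implantation at 8 weeks of host age, whereas the study's methods give an older age, and the labels state 3 to 5 mice per pool where the series design states 5. The RNA of each pool was measured on its own Affymetrix mouse array, which the series design calls an Exon ST array and the methods a Gene ST array.

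Values are probeset intensities on a linear scale, whose mean per array was 395.1 to 403.4. Differences are given as log2 intensity, tamoxifen minus control, and were fitted by limma over all 22369 probesets, with p-values adjusted by Benjamini and Hochberg. A gene is said to have risen or fallen only at an adjusted p under 0.05, and 3 pools against 3 cannot give a p under 0.1 in an exact permutation test of 1 gene. Brightness also depends on the probes, so levels are compared between pools and never between genes. Each pool mixes several mice and the digest was not sorted, so fewer cells of a type and less RNA per cell cannot be told apart. Luminal markers were bright in every pool (summed intensity of 8 measured markers 34631 to 34902 in controls and 31712 to 33534 after tamoxifen), and so were markers of fibroblasts (7 markers, 19940 to 20934 and 19549 to 21063) and endothelium (8 markers, 12623 to 14836 and 15808 to 16684). The lymphocyte markers stood apart in the tamoxifen 2 pool, at 7231 beside 2186 to 4040 in the other pools, and the basal markers in the control 1 pool, at 18960 beside 15376 to 16470.

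The promoters of the 3 genes with the largest differences are shown because Entpd3 differed from control in the opposite direction to Entpd2 and Nt5e. They are RefSeq sequences of build GRCm38.p6, 250 bases before to 50 bases after the annotated start, 5′ to 3′, at chr9:120539568-120539867 on the + strand for Entpd3, chr2:25395624-25395923 on the + strand for Entpd2 and chr9:88327359-88327658 on the + strand for Nt5e. Capitals mark every match, on either strand, to an AP-1 site (TGANTCA), an E-box (CACGTG) or a GC box (GGGCGG).
Entpd3: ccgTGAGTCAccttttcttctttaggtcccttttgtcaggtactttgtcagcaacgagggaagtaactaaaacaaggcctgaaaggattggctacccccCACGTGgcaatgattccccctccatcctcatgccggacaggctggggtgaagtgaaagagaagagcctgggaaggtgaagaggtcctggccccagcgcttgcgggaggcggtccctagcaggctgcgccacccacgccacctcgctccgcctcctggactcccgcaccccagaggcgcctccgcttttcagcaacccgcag
Entpd2: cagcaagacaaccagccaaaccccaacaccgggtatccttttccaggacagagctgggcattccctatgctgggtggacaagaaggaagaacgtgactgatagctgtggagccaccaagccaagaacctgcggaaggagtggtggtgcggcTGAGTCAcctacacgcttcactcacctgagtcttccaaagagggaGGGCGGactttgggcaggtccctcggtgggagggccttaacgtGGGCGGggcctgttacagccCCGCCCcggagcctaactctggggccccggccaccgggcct
Nt5e: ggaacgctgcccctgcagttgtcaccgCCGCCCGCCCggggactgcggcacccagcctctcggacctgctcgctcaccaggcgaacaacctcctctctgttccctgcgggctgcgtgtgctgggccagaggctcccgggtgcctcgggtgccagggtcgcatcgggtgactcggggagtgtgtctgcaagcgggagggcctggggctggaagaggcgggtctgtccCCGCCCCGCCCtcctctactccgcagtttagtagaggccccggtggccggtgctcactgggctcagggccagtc
The Entpd3 promoter held 1 AP-1 match, which starts 247 bases before the annotated start, and 1 E-box match at 151 bases before it. Entpd2 held 1 AP-1 match at 99 bases before the start and 3 GC box matches, and Nt5e held 4 GC box matches that overlap in pairs. Over all 32851 promoters of the same length in the table, an AP-1 match was found in 7.81%, an E-box match in 7.15% and a GC box match in 35.7%. Neither the full palindromic estrogen response element (in 0.07% of all promoters) nor its extended core hexamer (AGGTCA, in 16.3%) matched in any of the 6 promoters of the 5 measured genes. The motifs were chosen after these sequences had been seen, and a match describes letters only. Of the 9 named genes, 8 matched a promoter, Entpd1 and Adora1 with 2 each.

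Entpd3 encodes NTPDase3, which hydrolyses both ATP and ADP and is known from neurons and some epithelial and endocrine cells. Its intensity was 248.7, 297.2 and 313.6 in controls 1 to 3 and 198.7, 159.6 and 188.0 after tamoxifen, in the same order of pools as below. Every tamoxifen pool lay below every control pool, with the lowest control 1 and the highest tamoxifen 1 nearest to each other. The control mean was 286.5 ± 33.8 (SD, n = 3 pools) and the tamoxifen mean 182.1 ± 20.2 (SD, n = 3 pools), so the control level was 1.57-fold that after tamoxifen. The log2 difference was -0.65 (SE 0.13, 95% interval -0.96 to -0.35), and 1.14% of all probesets had a more negative one. Entpd3 was chosen by this difference, so neither the interval nor the share is a test. The gene did not pass (adjusted p = 0.122 from limma). The difference ranged from -0.75 without control 1 to -0.56 without tamoxifen 2, and stayed negative in all 17 alternatives. As the groups did not overlap, only rescaling of the arrays could have turned the sign.

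**Figure D1:**
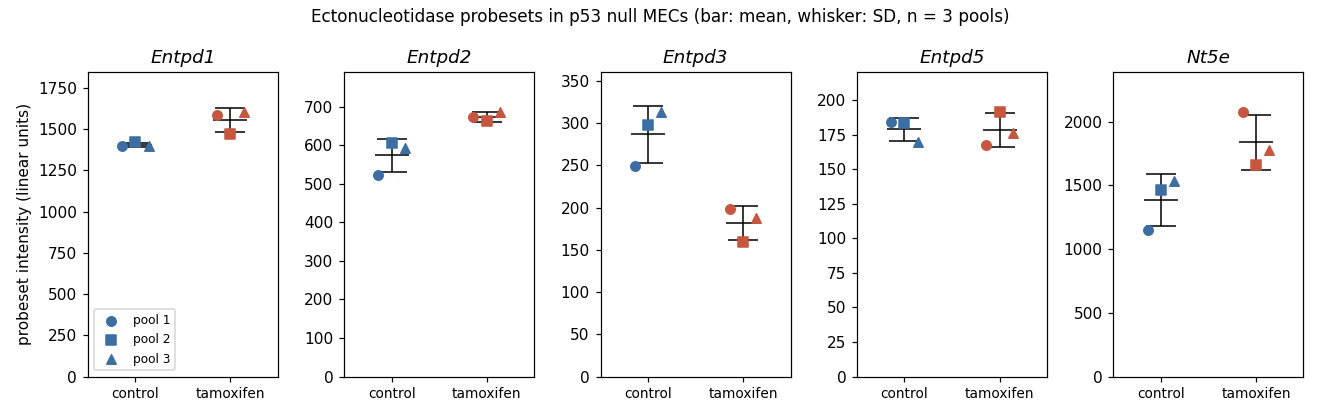
Probeset intensity (linear units, each axis from 0) of the 5 measured ectonucleotidase genes in 3 control pools (blue) and 3 tamoxifen pools (red), with symbols for the pool number, bars for the mean and whiskers for the SD. Entpd3 sits between 159.6 and 198.7 after tamoxifen, below all controls, Entpd1, Entpd2 and Nt5e sit above all controls, and Entpd5 overlaps.

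Nt5e encodes CD73, the surface enzyme that makes adenosine from AMP. Its intensity was 1148, 1462 and 1535 in controls and 2078, 1656 and 1777 after tamoxifen. All 3 tamoxifen pools were above all 3 controls, although the gap between control 3 and tamoxifen 2 was smaller than the spread within either group. The level after tamoxifen was 1.33-fold that of controls (log2 difference 0.42, SE 0.14, 95% interval 0.07 to 0.76), and the gene did not pass (adjusted p = 0.329 from limma). The lowest control was the control 1 pool, without which the difference was 0.29.

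Entpd2 encodes NTPDase2, which prefers ATP and leaves ADP, and in nerves is known from Schwann cells. Its intensity was 523.7, 604.8 and 593.0 in controls and 673.6, 662.0 and 687.4 after tamoxifen. The 3 tamoxifen pools were close to each other and above the controls, of which control 1 was the lowest. The log2 difference was 0.24 (SE 0.08, 95% interval 0.04 to 0.43), with an adjusted p of 0.327 from limma. Of 5 measured Schwann cell markers 4 had a positive log2 difference and 0 passed, and their summed intensity was 2144 to 2287 in controls and 2539 to 2742 after tamoxifen. The smallest p among them was that of the calcium-binding protein gene S100b (log2 difference 0.34, adjusted p = 0.161). The part of such cells in the Entpd2 values was not tested.

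Entpd1 encodes NTPDase1 (CD39), the main ATP and ADP hydrolysing enzyme of vascular endothelium and of several immune cells. Its intensity was 1396, 1419 and 1396 in controls and 1583, 1470 and 1606 after tamoxifen. The controls differed little from each other, and the nearest pool after tamoxifen, tamoxifen 2, was above all of them. The log2 difference was 0.14 (SE 0.07, 95% interval -0.02 to 0.31, adjusted p = 0.459 from limma). All 8 endothelial markers had a positive log2 difference with groups that did not overlap (9.79% of all probesets), 4 of them at an unadjusted p under 0.05 and 0 past the adjusted threshold. The endothelial receptor gene Tek had the smallest p among them (log2 difference 0.39, adjusted p = 0.246). Macrophage markers had 6 of 7 log2 differences above 0 and overlapped between the groups in summed intensity (4540 to 5000 in controls, 4511 to 5883 after tamoxifen). The part of endothelial cells and macrophages in the Entpd1 and Nt5e values was not tested.

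Entpd5 encodes a nucleoside diphosphatase of the endoplasmic reticulum that hydrolyses UDP and serves glycoprotein folding, unlike the surface enzymes above. Its intensity was 184.4, 183.3 and 169.5 in controls and 167.2, 191.7 and 176.1 after tamoxifen. The pools overlapped, with both the lowest and the highest value among the tamoxifen pools. The log2 difference was -0.01 (SE 0.08, 95% interval -0.20 to 0.19). The Entpd3 difference of -0.65 lies outside this interval. Entpd3 was chosen by its difference, so this is no test of a contrast between the genes.

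Counted together, 0 of the 5 genes rose (0.282% of all probesets did by limma), 0 fell (0.107%), and so 0 passed in either direction (0.389%). None of the 5 passed by the methods' t-test (an equal-variance test on log2 intensity) after the same adjustment (0 genes). At an unadjusted p under 0.05 the count was 3 of 5 by limma (12.4% of all probesets), namely Entpd2, Entpd3 and Nt5e. By the methods' t-test it was also 3 of 5 (2563 of 22369 probesets), but with Entpd1 in place of Nt5e. The groups did not overlap in 4 of 5 genes, beside 21.0% of all probesets, with 3 higher (9.79%) and 1 lower (11.2%) after tamoxifen. The median log2 difference was 0.14 over the 5 genes and -0.02 over all probesets. The set was named with the Entpd3 difference known, so nothing is read from these shares.

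Of the wider purinergic pathway, 56 of 60 listed genes were measured in 4 lists, and limma called 0 of them higher and 0 lower, as did the methods' t-test (0 genes). Before adjustment, limma gave 7 higher and 7 lower genes at p under 0.05 (6.55% and 5.87% of all probesets), and the groups did not overlap in 10 higher and 8 lower genes (9.79% and 11.2% of all probesets). The median log2 difference was 0.01.

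Among the other ectonucleotidases (13 of 15 measured, median 0.01), 2 lay higher and 2 lower at p under 0.05 before adjustment. Over all probesets the shares were 6.55% and 5.87%. Alpl, the tissue-nonspecific alkaline phosphatase that takes phosphate from nucleotides and pyrophosphate, had 1728, 1794 and 1786 in controls and 2267, 2267 and 2480 after tamoxifen. The groups were far apart for their spread, with a log2 difference of 0.40 (SE 0.07, adjusted p = 0.102 from limma), and the gene passed in 4 of 17 alternatives. Enpp6, a choline-specific phosphodiesterase of the same enzyme family as Enpp1, had 65.58, 69.95 and 85.66 in controls and 127.3, 87.44 and 105.8 after tamoxifen, where control 3 nearly met tamoxifen 2 (log2 difference 0.53, adjusted p = 0.299). Entpd6, an intracellular and secreted relative of Entpd5, had a log2 difference of -0.32 (adjusted p = 0.349).

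Of the genes that carry or convert adenosine and AMP (20 of 21 measured, median 0.01), 2 lay higher and 2 lower at p under 0.05 before adjustment. The shares over all probesets were 6.55% and 5.87%. Slc28a3 encodes the concentrative nucleoside transporter CNT3, which takes up adenosine with sodium. Its intensity was 1070, 1654 and 1290 in controls and 829.6, 750.0 and 745.4 after tamoxifen. The controls were widely spread and the tamoxifen pools close together, all below the lowest control. The log2 difference was -0.77 (SE 0.16, adjusted p = 0.145 from limma). Ampd3, an AMP deaminase that turns intracellular AMP into IMP, had 516.9, 558.8 and 500.2 in controls and 724.4, 670.0 and 740.6 after tamoxifen, a log2 difference of 0.44 (SE 0.08, adjusted p = 0.109), and passed in 3 of 17 alternatives. Adora3, the only adenosine receptor gene with a matched probeset, had 83.37, 67.58 and 80.85 in controls and 104.9, 87.32 and 93.02 after tamoxifen (log2 difference 0.30, adjusted p = 0.37). Its dimmer probeset had a log2 difference of -0.13 and overlapped between the groups, so its probesets disagree in sign.

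**Figure D2:**
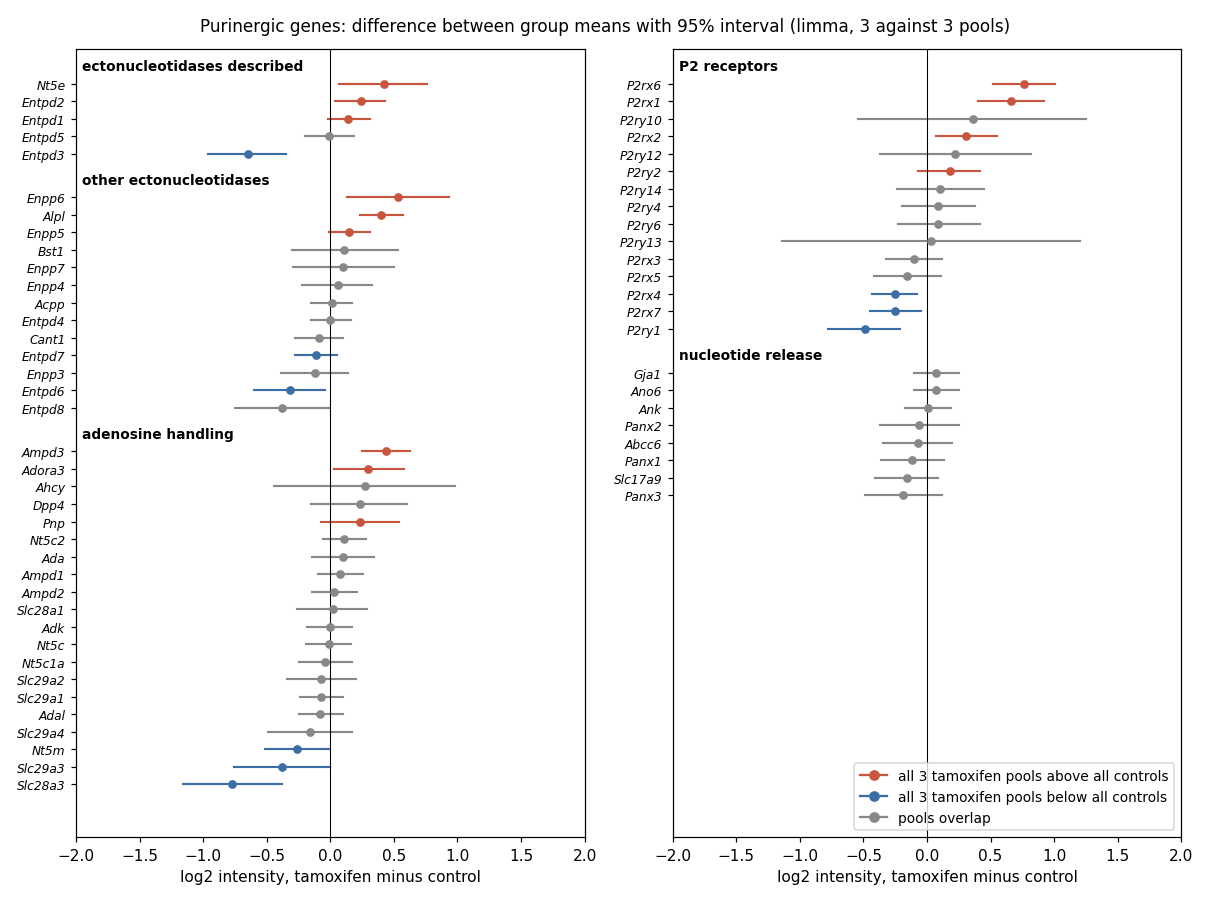
Log2 intensity difference, tamoxifen minus control (x axis), with its 95% interval for the 5 ectonucleotidases described and the 56 measured genes of the 4 pathway lists. Red and blue mark genes whose 3 tamoxifen pools lie all above or all below the controls, and grey marks overlap. Slc28a3 (-0.77) and Entpd3 (-0.65) lie farthest to the left and P2rx6 (0.76) farthest to the right.

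Of the P2 receptors, which sense the nucleotides that these enzymes remove (15 of 15 measured, median 0.09), 0 passed, and 3 lay higher and 3 lower at p under 0.05 before adjustment (6.55% and 5.87% of all probesets). P2rx6 encodes a subunit of ATP-gated channels, and had 72.01, 74.45 and 79.72 in controls and 132.5, 112.7 and 140.5 after tamoxifen. The groups were clearly apart, with a log2 difference of 0.76 (SE 0.10), but the adjusted p was 0.0536 from limma. It ranged from 0.00791 to 0.232 over 16 alternatives, 7 of which the gene passed. The filter at the median intensity removed P2rx6, so that alternative is missing. P2rx1, the ATP-gated channel of smooth muscle and platelets, had 91.41, 102.8 and 109.7 in controls and 172.6, 142.7 and 164.9 after tamoxifen (log2 difference 0.66, SE 0.11, adjusted p = 0.0906). Both genes are in the study's list of changed transcripts, so they are not independent evidence. P2ry1, a receptor for ADP, had 224, 172.5 and 203 in controls and 153, 131.2 and 140.2 after tamoxifen (log2 difference -0.49, SE 0.12, adjusted p = 0.19).
Genes of nucleotide release lay near control (8 of 9 measured, median -0.07), with 0 genes past an unadjusted p of 0.05 by limma. The ones with the smallest p were Slc17a9, the vesicular nucleotide transporter (log2 difference -0.16, adjusted p = 0.619), and the pannexin channel genes Panx3 (-0.19, adjusted p = 0.63) and Panx1 (-0.12, adjusted p = 0.721).

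The profile of Entpd3 over the 6 pools was set beside those of 9770 genes at or above the median intensity, each centred on its own mean, and the nearest 5 were taken by the root mean square of the log2 differences. They were Rundc3a (0.069), Podxl (0.082), Prkar2b (0.095), Cyp2f2 (0.095) and Fam160a1 (0.098). The other 4 ectonucleotidases, which were not picked by distance, lay at 0.381 to 0.537. The nearest 5 are the smallest of 9770 distances and no typical distance was computed, so this contrast says nothing about the family. Prkar2b encodes a regulatory subunit of the cAMP-dependent protein kinase, and had 909.2, 1060 and 1224 in controls and 700.3, 680.8 and 732.4 after tamoxifen. Cyp2f2 encodes a cytochrome P450 that is known from airway club cells, and had 434.4, 470.1 and 446.3 in controls and 309.0, 257.3 and 319.7 after tamoxifen. In both, as in Entpd3, control 1 was the lowest control and tamoxifen 2 the lowest pool. The log2 difference was -0.55 in Rundc3a, -0.69 in Podxl, -0.59 in Prkar2b, -0.61 in Cyp2f2 and -0.75 in Fam160a1. Podxl, the sialomucin podocalyxin of apical membranes, fell (adjusted p = 0.0431 from limma, and 0.0762 to 0.193 with any 1 pool left out). The other 4 did not pass (adjusted p of 0.068 to 0.137). These genes were picked for a profile that holds the group difference, so their differences are no further evidence. Luminal markers, which mark the cells of the duct lining, had 7 of 8 log2 differences below 0 in the same pools. The lowest p belonged to Elf5, a regulator of alveolar luminal cells (log2 difference -0.70, adjusted p = 0.258 from limma, and -0.41 at the smallest over the alternatives). Elf5 had 2104, 1459 and 1266 in controls and 945.7, 868.1 and 1101 after tamoxifen. Control 1 was thus its highest control, unlike in Entpd3. The other measured luminal markers, named here to complete the list, were mixed in this. Control 1 was also the highest control in Cldn3 and Gata3. In Krt18, Krt19, Cdh1 and Foxa1 it was the lowest control, as in Entpd3, and in Epcam it lay between the others. The part of luminal cells in the Entpd3 values was not tested.

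**Figure D3:**
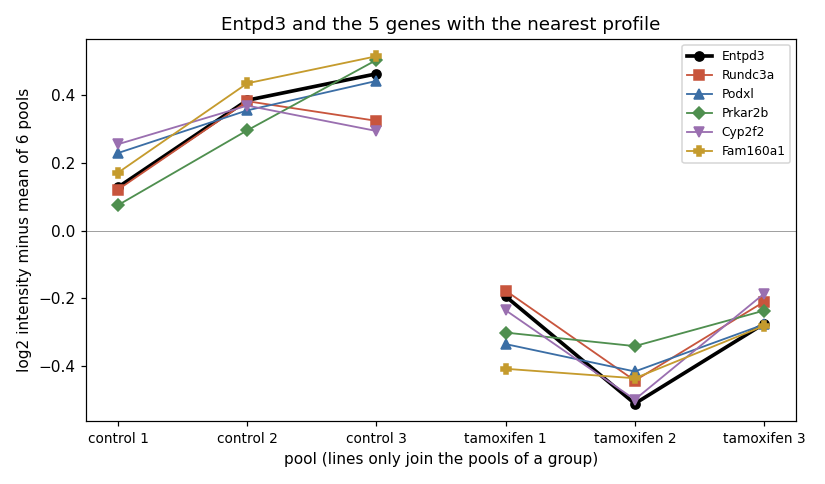
Log2 intensity minus the mean of 6 pools (y axis) in each pool for Entpd3 (thick black) and the 5 genes with the nearest profile. In all 6 genes every control pool lies above 0 and every tamoxifen pool below it.

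**Figure D4:**
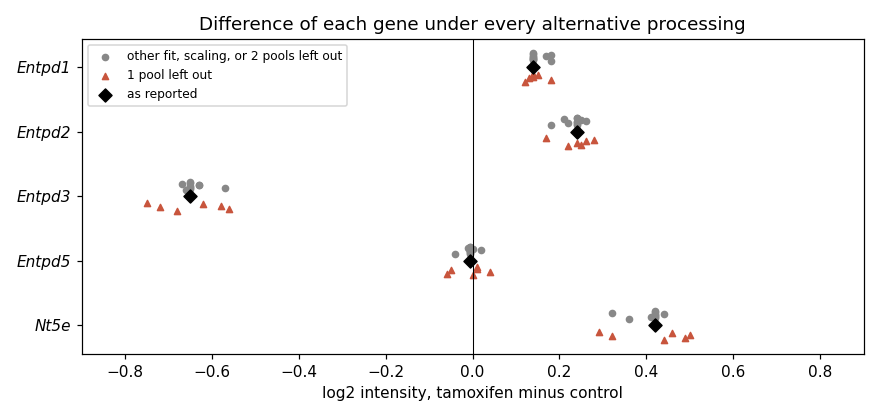
Log2 difference, tamoxifen minus control (x axis), of the 5 ectonucleotidase genes as reported (diamonds), with 1 pool left out (triangles) and under the other alternatives (circles). Entpd3 stays between -0.75 and -0.56 and Nt5e between 0.29 and 0.50, while Entpd5 lies on both sides of 0.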

How the data were processed

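Affymetrix arrays of 3 control and 3 tamoxifen pools of MECs were analysed. The authors deposited linear intensities, 1 for each array of a probeset. MAS5 and mm9 stand in the submitters' processing notes, without a stated role. How background was corrected and arrays were scaled is not given in the sources used here. Of 22369 probesets, 18286 have 1 gene symbol in the platform annotation, 1276 several and 2807 none, and the Entrez IDs of the 5 measured genes were found in the RefSeq table of GRCm38.p6. A gene is represented by its probeset with the highest mean over 6 arrays.

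Log2 intensities, without an offset or filter, were fitted with limma 3.58.1 in R 4.3.3 (lmFit and eBayes, two-sided, group as the only term, 4 residual and 2.35 prior degrees of freedom). Tables and plots used Python 3.11.15, pandas 2.3.3, numpy 2.4.6, scipy 1.17.1 and matplotlib 3.10.9. On simulated arrays of 22369 probesets, the fit of tamoxifen against control recovered 68 of 100 changes of 1 and 91 of 100 changes of 2 on the log2 scale, with 6 false calls. Both sizes exceed every log2 difference reported here, so the recovery of smaller changes was not measured. The simulated noise was normal and independent, with SDs shuffled over the probesets, and held no pool effects. The members and lists were chosen with earlier results of these data known. Genes named are the measured members, the 3 smallest p-values and any gene past the threshold in each pathway list, the smallest p in each marker list and the 5 nearest profiles, and any other is marked where it stands. For the arrays the methods give a nominal p under 0.01, a fold over 1.4 and a false discovery rate after Storey and Tibshirani, which was not recomputed, and they name Student's t-test for the study's statistics in general. Alternatives used each pool left out, the replicate block, 1 probeset per gene, 2 intensity filters, an offset of 32, median centring, quantile normalization, array weights, a variance trend and the methods' t-test, and, after the data were seen, control 1 and tamoxifen 2 both left out. Precision is limited by having 6 arrays. The p-values set each group difference against the spread between pools, which limma moderates over all probesets.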

Additional observations from a re-analysis of the deposited data

How the results depend on the processing

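The directions of Entpd1, Entpd2, Entpd3 and Nt5e held in all 17 alternatives, most of which could not have turned them. Their groups did not overlap, so leaving out pools, array weights or the offset cannot reverse a sign. The t-test, variance trend, filters, 1 probeset per gene and replicate block give the same difference as the main fit. Only quantile normalization and median centring could have changed a direction. Entpd5, near 0, turned positive with median centring (0.02) and with single pools left out (up to 0.04, and 0.00057 without tamoxifen 3, over a range from -0.06). Of the 5 genes 0 passed in every alternative but array weights, where the count was 1; that gene was Entpd3, which was chosen by this comparison, so the count is no test of it. Of the 56 pathway genes 5 passed with array weights (Alpl, Ampd3, P2rx1, P2rx6 and Slc28a3), 3 with a variance trend and robust estimation, 2 with an offset of 32 and 2 above the median intensity, and 1 (P2rx6) with quantile normalization, median centring, the filter at the 25th percentile or 1 probeset per gene. With 1 pool left out 0 genes of either set passed. Over all probesets 87 passed, beside 17 by the methods' t-test, 190 with a variance trend, 519 with array weights, 144 and 194 with the filters at the 25th percentile and the median, 161 with the offset, 21 to 31 with 1 pool left out and 4 with control 1 and tamoxifen 2 left out. Filters and 1 probeset per gene test fewer features, and the cause of the other shifts was not tested.
The labels link same-numbered pools by the number only. Correlations of their deviations from the group means were 0.054, 0.007 and -0.042, beside -0.063 to 0.069 for pairs with unlike numbers. Whether same-numbered pools were handled together was not tested. With the replicate block 15 probesets passed, and 0 of the 5 and 0 of the 56 genes.
The lymphocyte marker Cd2 turned from 0.29 to -0.04 with array weights, it ranged from -0.08 (without tamoxifen 2) to 0.5 with 1 pool left out, and turned to -0.21 without control 1 and tamoxifen 2.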

Other observations

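The P2Y receptors P2ry10, P2ry12 and P2ry13, which are known from blood cells, were highest in the tamoxifen 2 pool, and were chosen after their values were seen. P2ry10 had 357.8, 594.0 and 550.1 in controls and 502.0, 1090 and 449.5 after tamoxifen. P2ry13 had 92.39, 113.8 and 117.8 in controls and 83.12, 246.2 and 63.88 after tamoxifen. P2ry12 had 102.9, 119.0 and 99.32 in controls and 115.9, 182.7 and 91.67 after tamoxifen. Without that pool the groups overlapped in P2ry10 and P2ry12, while in P2ry13 the tamoxifen 1 and 3 pools were below every control. The 8 measured lymphocyte markers summed to 7231 in the tamoxifen 2 pool and to 2186 to 4040 in the others, and 0 of them passed (limma, 0 at an unadjusted p under 0.05 as well and 0 by the methods' t-test). The smallest p among these markers was that of Cd2, with a log2 difference of 0.29 (adjusted p = 0.788).

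Marker lists of other cell types were compared between the same pools. Mast cell markers had 6 of 7 log2 differences above 0 (median 0.42), with the IgE receptor gene Fcer1a at 0.47 (adjusted p = 0.093 from limma). Fcer1a was dim (20.84 to 22.42 in controls, 28.61 to 32.49 after tamoxifen), and its difference was 0.21 with an offset of 32. Adipocyte markers had 5 of 6 above 0 (median 0.21), with the lipid droplet gene Cidec at 0.57 (adjusted p = 0.147 from limma). Summed intensity overlapped between the groups for mast cell markers (2627 to 3409 in controls, 3146 to 3487 after tamoxifen) and adipocyte markers (2773 to 2902 and 2738 to 3091). Sums are led by bright genes such as Kit, the only mast cell marker below 0 (-0.10), at 2108 in control 1. Singly, 4 of 7 mast cell markers were higher without overlap and 0 lower (9.79% and 11.2% of all probesets). For adipocyte markers the counts were 2 higher and 1 lower of 6. Basal epithelial markers had 3 of 7 log2 differences above 0 and 4 below (median -0.14), and the one with the smallest p, the smooth muscle myosin gene Myh11, differed by 0.29 (adjusted p = 0.255), against the sign of the median. Fibroblast markers had 3 of 7 above 0 and 4 below (median -0.02), with the receptor gene Pdgfra at -0.18 (adjusted p = 0.385). Among the macrophage markers (median 0.11) the receptor gene Mrc1 had 0.39 (adjusted p = 0.51). None of the marker genes passed (0 rose and 0 fell by limma in the 9 lists). Their part in the values of the ectonucleotidases was not tested.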
